A study of Apis mellifera with 36 samples.

Results

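In the brains of honey bee workers (Apis mellifera) from a pair of colonies, 49 genes had no overlap between the colonies: the lowest of 18 bees of colony 6 stood above the highest of 18 bees of colony 5. The genes were chosen on that contrast from 15314 gene IDs. Of these IDs, 10300 reached the required mean of 1 CPM (counts per 1000000 counts in genes) in colony 6, so the 49 genes made up 0.476% of those that could be chosen. The difference between the colonies is therefore a description here and carries no test. The opposite rule, with the minimum set in colony 5, gave 63 genes wholly higher in colony 5.

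The study measured RNA from 36 bees, each in a library of its own and each 7 days old. Every colony contributed 6 guards, which attacked an intruder bee in both trials of an aggression assay, 6 nurses, which tended a queen larva in both trials of a nursing assay, and 6 unresponsive bees, which showed neither behaviour. All were reared from emergence in laboratory dishes of 10 bees. The tissue was the upper midbrain, which per the labels' protocols held mostly the mushroom bodies together with the central brain. Each bee is named below by its type and the number in its title. Every number was shared by 1 bee of each type.

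Each colony descended from a queen inseminated by a single drone. Drones are haploid, so all workers of such a colony carry the same paternal genome, and sisters differ only by which copy of each gene they received from the queen. The mushroom bodies are paired centres of the insect brain for learning, memory and the joining of sensory inputs. There was 1 colony on each side, so a difference in descent cannot be told apart from any other difference between these colonies. In whole tissue, more cells of a type and more RNA per cell cannot be told apart either. Of the IDs, 0 were found in the reference gene table, so genes are given by ID, no role is given for any of them, and the tissue could not be checked against marker genes.

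Library totals over genes were 19.3 ± 2.39 M counts (SD, n = 36), from 16.2 to 27.5 M, and the 3 bees numbered 213 had the deepest libraries, 23.3 to 27.5 M. The load of the bee RNA virus DWV (deformed wing virus) was unequal between the colonies. It lay between 6673 and 28967 reads per 1000000 total reads (RPM) in 13 bees of colony 5 and 3 of colony 6, all 3 of them guards, and between 2.60 and 63.9 RPM in the other 20 bees. With the 16 bees of high load left out, 5 bees of colony 5 and 15 of colony 6 remained. The rule fixes the direction in any choice of bees, so only the sizes are given. The median ratio of the colony means was 2.14 in these 20 bees against 2.33 in all 36. GB41275 and GB41278 moved by more than 1.5 times, both upwards. The 5 bees left in colony 5 were Nurses 19, 32, 35 and 40 and Guard 35, with no unresponsive bee. For GB41278, Guard 35 and Nurse 35 had 1 count each and the other bees left in colony 5 had no count. For GB41275, Nurse 19 stood at 6.80 CPM and the other bees left in colony 5 at no more than 0.482 CPM. Whether these shifts go with load, type or the choice of few bees was not tested.

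The colony 6 excess of the 49 genes was graded, from 1.22-fold for GB52593 to 308-fold for GB41278. The ratio of the colony means was at least 20 for 4 genes, from 4 to 20 for 11, from 2 to 4 for 13 and under 2 for 21. Genes with the greatest ratios were mostly weakly expressed: the 4 genes at 20 or more had a median colony 6 level of 2.42 CPM, and the 21 genes under 2 had one of 51.8 CPM. Across all 49 the colony 6 mean was at least 10 CPM in 30 genes and under 5 CPM in 13. A gene with many counts and a small spread can separate the colonies with a small fold, and a gene with few counts needs a large one.

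**Figure D1:**
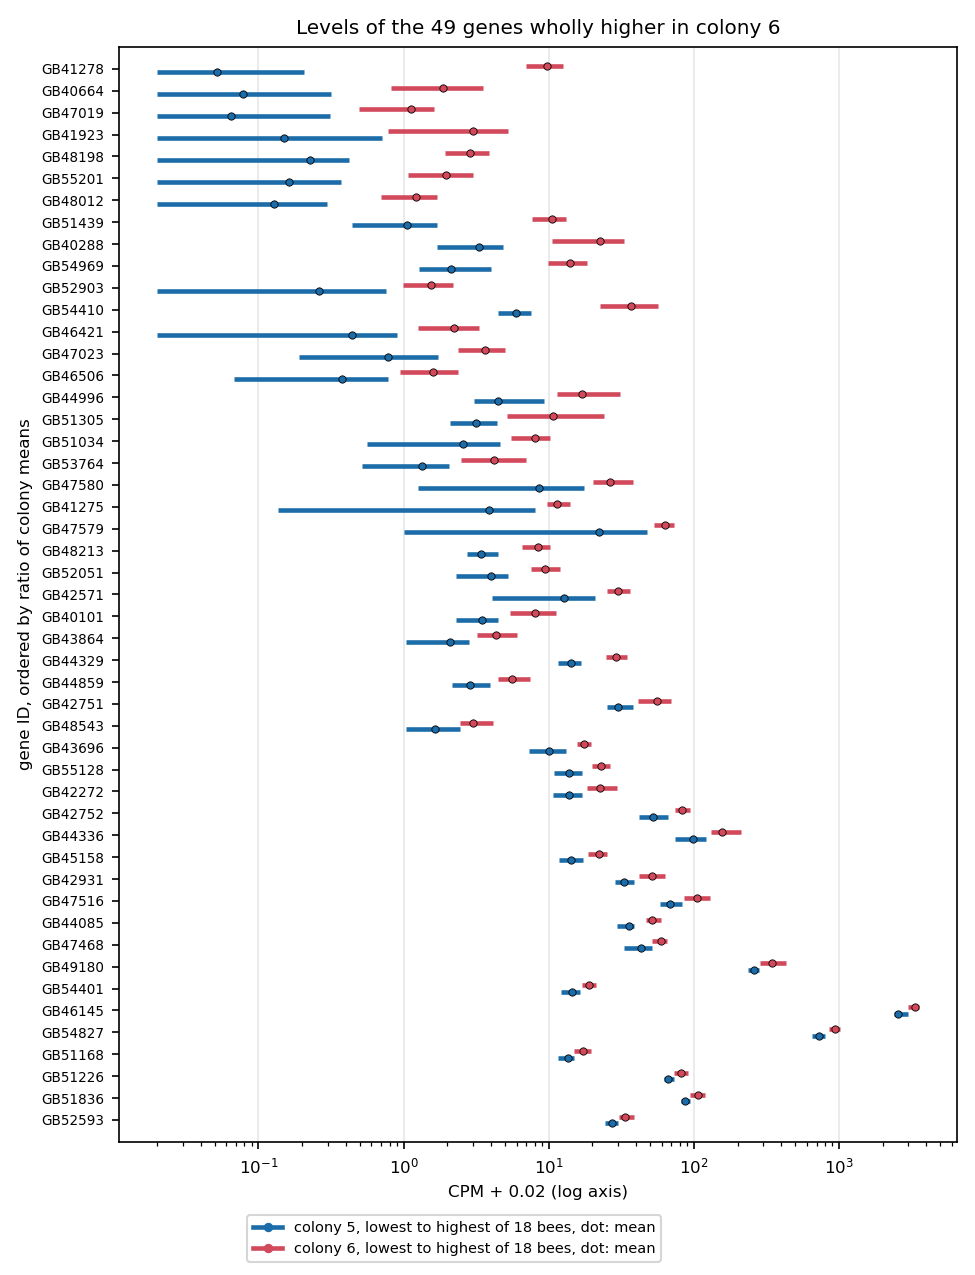
Level of each of the 49 genes in both colonies, in CPM with 0.02 added, on a log axis, with genes ordered by the ratio of colony means; lines run from the lowest to the highest of 18 bees and dots are means. The colony 6 line lies to the right of the colony 5 line in every gene, by a wide space at the top (GB41278) and by a narrow one at the bottom (GB52593).

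GB41278 stood furthest apart. Its lowest, median and highest values in colony 6 were 6.97, 10.3 and 12.6 CPM, and in colony 5 they were 0, 0 and 0.186 CPM. It was near absent in colony 5, where 11 of 18 bees had no count and all 18 together had 10 counts, against 3505 counts in colony 6. Its lowest colony 6 bee stood 37.6 times above its highest colony 5 bee, the widest space of any of the 49 genes.

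The 3 genes next in ratio were also close to absent in colony 5, but low in colony 6 as well. GB40664 had a lowest, median and highest value of 0.804, 1.69 and 3.52 CPM in colony 6, and of 0, 0.0512 and 0.297 CPM in colony 5, a ratio of 31.8. GB47019 had 0.471, 1.27 and 1.60 CPM in colony 6 against 0, 0 and 0.292 CPM in colony 5, a ratio of 24.8. GB41923 had 0.755, 2.70 and 5.19 CPM in colony 6 against 0, 0.0220 and 0.690 CPM in colony 5, a ratio of 22.8. The number of counts behind these colony 5 values was small: 19, 15 and 46 counts over all 18 bees. For GB41923 the ratio within guards was 60.5, against 16.3 within nurses and 15.4 within unresponsive bees, and the range of colony 5 reached close to that of colony 6.

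GB48198, GB55201 and GB48012 were also near 0 in colony 5. GB48198 ran from 1.92 to 3.85 CPM in colony 6, with a median of 2.86 CPM, and from 0 to 0.398 CPM in colony 5, with a median of 0.224 CPM. GB55201 ran from 1.05 to 2.97 CPM in colony 6, with a median of 1.88 CPM, and from 0 to 0.351 CPM in colony 5, with a median of 0.114 CPM. GB48012 ran from 0.680 to 1.67 CPM in colony 6, with a median of 1.14 CPM, and from 0 to 0.275 CPM in colony 5, with a median of 0.116 CPM. Their ratios were 13.9, 13.6 and 11.2. In all, 9 of the 49 genes had no count in at least 1 colony 5 bee, none had no count in all 18, and none lacked counts in any colony 6 bee. The colony 5 mean was under 1 CPM in 11 genes.

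Other genes with large ratios were clearly expressed on both sides. GB51439 had a lowest, median and highest value of 7.61, 10.6 and 13.2 CPM in colony 6, and of 0.419, 1.09 and 1.68 CPM in colony 5. GB40288 had 10.5, 24.8 and 32.8 CPM in colony 6 against 1.67, 3.43 and 4.83 CPM in colony 5. GB54969 had 9.85, 13.5 and 18.4 CPM in colony 6 against 1.26, 1.98 and 3.98 CPM in colony 5. These genes were present in every bee of colony 5 at a reduced level, with ratios of 10.0, 6.87 and 6.63.

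At the other end were abundant genes with small ratios. GB46145, the most abundant of the 49, had a lowest, median and highest value of 2990, 3369 and 3550 CPM in colony 6 and of 2403, 2516 and 2979 CPM in colony 5. GB54827 had 848, 951 and 1008 CPM in colony 6 against 655, 711 and 794 CPM in colony 5. GB49180 had 286, 335 and 432 CPM in colony 6 against 236, 258 and 280 CPM in colony 5. The ratios of these 3 genes were 1.30, 1.29 and 1.33. GB44336 followed with 155 ± 20.3 CPM in colony 6 against 99.1 ± 12.3 CPM in colony 5, and GB51836 with 107 ± 6.58 against 87.1 ± 4.16 CPM (SD, n = 18 bees each). The 49 genes together took 5861 ± 167 CPM of a colony 6 library, against 4273 ± 191 CPM of a colony 5 library. Without GB46145 these sums were 2534 ± 74.9 and 1709 ± 53.4 CPM, so GB46145 supplied most of the summed level but less of the difference than the other 48 genes together.

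The space between the colonies was narrow for most of the genes. The lowest colony 6 value over the highest colony 5 value had a median of 1.19, was at least 2 in 9 genes and was under 1.1 in 17. It was least in GB48543, at 1.003 (3.00 ± 0.464 against 1.62 ± 0.416 CPM), in GB46145, at 1.004, and in GB51226, at 1.005 (82.1 ± 4.46 against 65.8 ± 3.27 CPM). Some of the genes left the set when libraries were scaled otherwise. With library sizes scaled by the TMM method or by DESeq2 size factors, GB46145, GB48543, GB49180 and GB52593 overlapped and 1 other gene, GB40816, entered, which left 46 genes, 45 of them among the 49. GB51226 stayed under both scalings. With total reads as the denominator 42 of the 49 were kept and 7 others entered. Of the 7 lost, GB48543, GB51226 and GB52593 overlapped, and GB46506, GB47019, GB48012 and GB52903 fell under the minimum of 1 with no overlap.

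Just outside the rule, GB46643 missed by an overlap ratio of 0.999924 (153 CPM in colony 6 against 130 CPM in colony 5), GB40816 by 0.998 and GB50360 by 0.995. A further 4 genes did not overlap but missed the minimum. GB40982 had 0.794 CPM in colony 6 and no count in any colony 5 bee. With 3 counts over the whole colony 5 group as the limit that a count of 0 allows, it was at least 88.4-fold higher in colony 6. GB54081 had 0.708 CPM in colony 6, also with no count in colony 5, and was at least 78.7-fold higher by the same limit. GB55217 had 0.789 CPM in colony 6 against 0.105 CPM in colony 5. These limits cover counting error only.

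Sisters of colony 6 were more alike in these genes than sisters of colony 5. The coefficient of variation (SD over mean) had a median of 14.7% in colony 6 and of 22.02% in colony 5, and was higher in colony 5 in 32 of 49 genes. Means were lower in colony 5, where counting error is a greater share of the mean, and the rule itself bears on the spread, so this is a description. In colony 6 the coefficient ran from 4.48% in GB46145 to 55.9% in GB51305. It was under 10% in 17 genes, among them GB51226 and GB54827 at 5.43% and 5.82%, and next to GB51305 the widest were GB41923 and GB40664 at 48.2% and 42.4%. The median biological coefficient of variation fitted by edgeR within type and colony was 16.8% for the 49 genes and 10.7% for all 10948 genes tested.

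In part this spread took the form of separate levels among sisters of colony 5. A gene was said to have 2 levels in a colony when the greatest step between neighbouring sorted values of log2(CPM + 0.1) was at least 1, with at least 3 bees on each side. In colony 5 this held for 4 of the 49 genes, and for 3 of the 38 that had a mean of at least 1 CPM there, against 0.706% of the 10336 genes with such a mean. In colony 6 it held for 0 of 49, against 0.777% of 10300 genes. The levels were in each case found by the same values that define them, so they are descriptions.

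GB47579 had 9 colony 5 bees between 0.993 and 2.34 CPM and 9 between 39.1 and 47.5 CPM, while colony 6 ran from 53.1 to 72.6 CPM. The higher level, 43.0 ± 2.92 CPM, was 26.6 times the lower level, 1.62 ± 0.426 CPM (SD, n = 9 bees each). The colony 6 mean of 62.8 ± 4.75 CPM (SD, n = 18) was 1.46 times the higher level of colony 5. No bee stood between the levels, so the colony mean ratio of 2.82 describes no single colony 5 bee.

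GB47580, the next ID, had 9 colony 5 bees between 1.24 and 3.55 CPM and 9 between 12.3 and 17.4 CPM, while colony 6 ran from 20.2 to 38.2 CPM. The bees on the lower level were the same as for GB47579 in 18 of 18 bees: Guards 5, 19 and 32, Nurses 5, 19 and 35, and Unresponsive bees 32, 35 and 36. Each type thus had 3 bees on each level. The levels of GB47580 lay 5.90 times apart, and the colony 6 mean was 1.798 times the higher one. Reads ambiguous between genes had a summary line of their own, 0.211% of the reads counted in genes or summary lines, and stayed out of the gene totals. Since no coordinates were used here, whether GB47579 and GB47580 overlap was not tested.

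**Figure D2:**
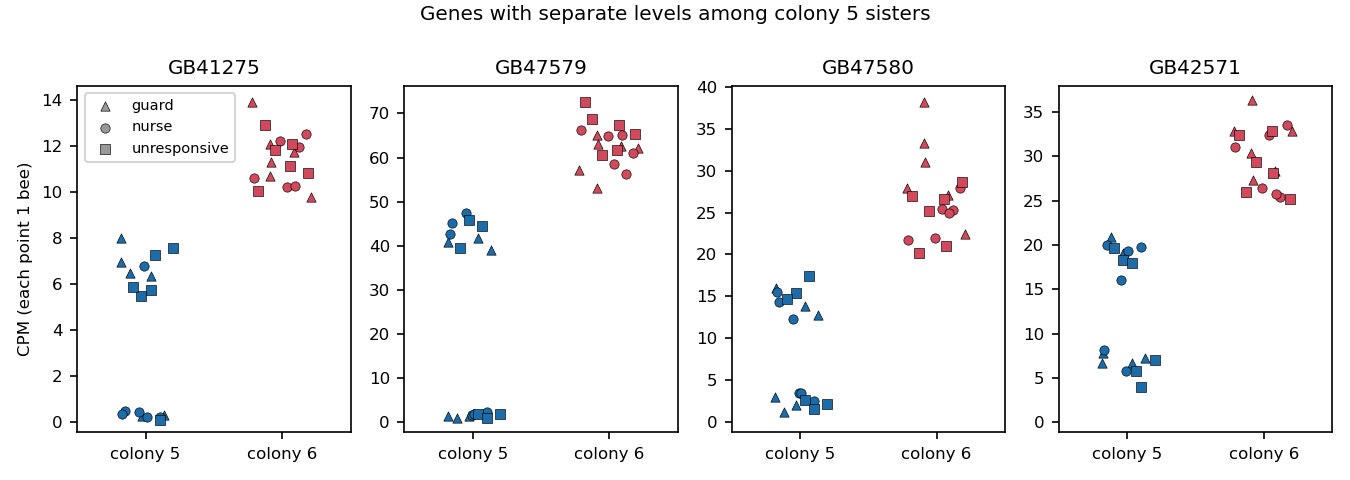
CPM of GB41275, GB47579, GB47580 and GB42571 in each bee, by colony (blue, colony 5; red, colony 6), with symbols for the behavioural type. Colony 5 bees fall into a lower and a higher level, both below every colony 6 bee, and colony 6 bees form a single range.

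**Figure D3:**
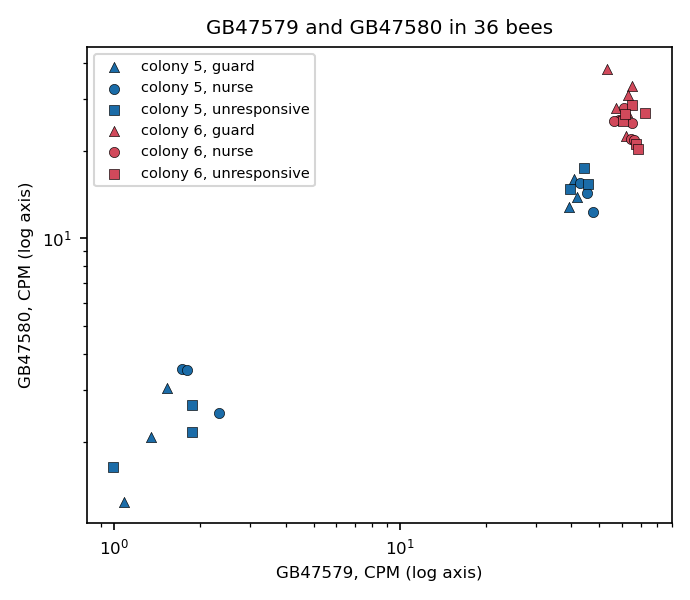
CPM of GB47579 against GB47580 in 36 bees, both on log axes, coloured by colony with symbols for the type. The 9 colony 5 bees low for GB47579 are the 9 low for GB47580, and all 18 colony 6 bees lie above both levels of colony 5.

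GB41275 had 8 colony 5 bees between 0.117 and 0.482 CPM, or 2 to 9 counts, and 10 between 5.50 and 8.003 CPM, while colony 6 ran from 9.76 to 13.9 CPM. The levels lay 21.8 times apart, and the colony 6 mean of 11.4 ± 1.11 CPM (SD, n = 18) was 1.72 times the higher one. The lower level held 2 guards, 5 nurses and 1 unresponsive bee. The colony 6 excess of the means was accordingly 7.92-fold within nurses, 2.45-fold within guards and 2.14-fold within unresponsive bees. The differences between types within colony 5 did not pass the threshold given below: unresponsive bees stood 1.88 ± 0.69 above nurses on the log2 scale (SE, adjusted p = 0.536 by edgeR). The split of GB41275 was not that of GB47579, since 9 of 18 bees were on the same side for both genes.

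GB52903 was at 0 in 10 colony 5 bees and at 0.228 to 0.742 CPM, or 4 to 13 counts, in the other 8, while colony 6 ran from 0.971 to 2.18 CPM. The number of counts is small, but no bee had 1 to 3 counts. With a pseudocount of 0.5 CPM in place of 0.1, an alternative chosen after seeing the data, GB52903 no longer met the definition and the other 3 genes did.

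With the least step lowered to 0.5, also chosen after seeing the data, 10 genes met the definition in colony 5 and 2 in colony 6. The 10 include GB41278 and GB48012, where the step divided bees with no count from bees with at most 3 and 5 counts. On so few counts such a step need not be a separate level. In genes with a mean of at least 1 CPM, 5 of 38 met the lowered step in colony 5, against 1.25% of all such genes, and 2 of 49 in colony 6, against 1.67%. GB42571 had 9 colony 5 bees between 4.03 and 8.17 CPM and 9 between 16.03 and 20.96 CPM, below a colony 6 range of 25.2 to 36.3 CPM. GB51034 had 6 colony 5 bees between 0.535 and 0.966 CPM and 12 between 1.78 and 4.58 CPM, below a colony 6 range of 5.44 to 10.2 CPM. Neither gene divided the sisters as GB47579 did: 8 of 18 bees were on the same side for GB42571 and GB47579. In colony 6, GB54410 had 7 bees between 22.7 and 26.6 CPM and 11 between 39.2 and 56.4 CPM, above a colony 5 range of 4.43 to 7.56 CPM, so for this gene the separate levels were in the higher colony.

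Most of the 49 genes stood alone in the order of the IDs, whose numbers run along the list of genes in the files. The median distance to the nearest other of the 49 was 129 places, and 41 genes had none within 5 places. The other 8, or 16.3%, formed 4 pairs. For comparison, 2.63% of the 10355 expressed genes had 1 of the 49 within 5 places. Whether neighbouring numbers are neighbours on a chromosome was not tested. Genes next to the 49 showed no common direction: of 61 expressed genes 1 place away, 30 were higher and 31 lower in colony 6. Their median log2 ratio was -0.0021 and the median size of that ratio 0.13, against 0.0054 and 0.091 for all expressed genes. The 61 include 4 of the 49 genes themselves and 1 gene wholly lower in colony 6.

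The first pair was GB41275 and GB41278, 3 places apart, with genes of a different pattern between them. GB41276, next to GB41275, was wholly lower in colony 6: its lowest, median and highest values were 0.344, 0.835 and 1.71 CPM in colony 6, against 2.201, 3.16 and 4.23 CPM in colony 5. GB41277 was at 0 in every bee but 1, and GB41279 overlapped, with 4.18 ± 0.499 CPM in colony 6 against 4.45 ± 0.535 CPM in colony 5 (SD, n = 18). Within 4 IDs there was thus a gene near absent in colony 5, a gene with separate levels in colony 5, and a gene lower in colony 6.

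**Figure D4:**
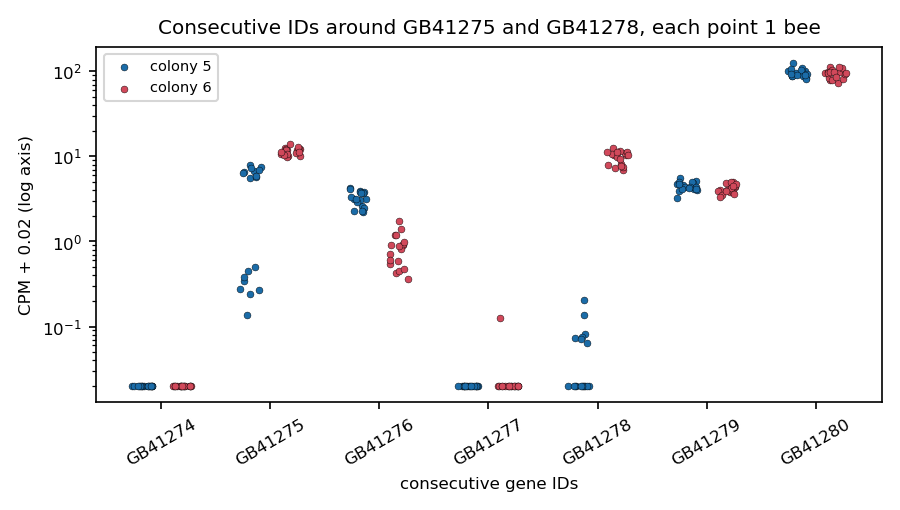
CPM with 0.02 added, on a log axis, of 7 consecutive gene IDs in each bee of colony 5 (blue) and colony 6 (red). GB41275 and GB41278 are wholly higher in colony 6, GB41276 is wholly lower, and GB41279 and GB41280 overlap.

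A gene wholly lower in colony 6 lay within 5 places of 5 of the 49 genes, 10.2%, against 3.399% of all expressed genes. GB41276 counted here for both GB41275 and GB41278, so fewer wholly lower genes than 5 lie behind that share. Besides GB41276, the wholly lower genes were GB41925, 2 places from GB41923, with a median of 0 CPM in colony 6 against 3.11 CPM in colony 5, GB48203, with 88.4 against 123 CPM, and GB53768, with 14.5 against 23.9 CPM. GB41923 and GB41925 thus stood in opposite directions.

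The other pairs were GB42751 with GB42752, GB47579 with GB47580, and GB47019 with GB47023, 4 places apart. GB42751 ran from 41.3 to 69.7 CPM in colony 6 and from 25.3 to 37.8 CPM in colony 5. GB42752 ran from 74.0 to 93.6 CPM and from 41.6 to 66.5 CPM. GB47023 ran from 2.35 to 5.01 CPM in colony 6 and from 0.171 to 1.71 CPM in colony 5, higher in both than GB47019.

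Within a colony, where the colony difference cannot enter, levels of neighbouring genes were correlated across bees in 10 relations. GB42751 and GB42752 passed the threshold in colony 5 (Pearson's r = 0.677, Spearman's rho = 0.659, n = 18, two-sided permutation tests, adjusted p = 0.0386 for both). Leaving out the 2 bees farthest from the median of GB42751 gave r = 0.469 (permutation p = 0.0674), so the relation rested in part on those bees. With the means of the types removed, r was 0.618 with an adjusted permutation p of 0.118. In colony 6 the pair had r = 0.492 and rho = 0.558, with an adjusted permutation p of 0.109 for both. None of the other 8 relations passed. GB47579 and GB47580, which shared their levels, had r = 0.0567 within the 9 bees of the higher level and r = 0.699 within the 9 of the lower level (exact permutation test, adjusted p = 0.885 and 0.109). Leaving out the 2 bees farthest from the median of GB47579 gave r = 0.147 in the lower level. In colony 6 this pair had r = -0.494, of opposite sign (n = 18, permutation test, adjusted p = 0.109), and r = -0.354 with 2 such bees left out. Libraries and depth are shared by the genes of each relation.

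Behavioural type was not used to choose the genes and was tested by edgeR's quasi-likelihood test over all 10948 genes that passed the filter on low counts, with Benjamini-Hochberg adjustment and a threshold of 0.05. All 49 genes passed that filter. The rule asks every bee of colony 6, whatever its type or title number, to stand above every bee of colony 5. It thus favours genes with a small spread inside each colony, which can lower the number called. Shares of the 49 set beside those of all genes, here and below, are therefore descriptions. With both colonies together, 0 of the 49 differed between guards and nurses, against 0.0913% of all genes tested. None differed between unresponsive bees and nurses, where 0% of all genes were called, or between unresponsive bees and guards, where 0.0183% were. An unadjusted p under 0.05 was found for 6, 2 and 1 of the 49 genes in these comparisons, against 15.2%, 5.4% and 15.7% of all genes. DESeq2 called 0 of the 49 in each, against 0.941%, 0.0731% and 0.968% of all genes.

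Between guards and nurses the median log2 difference of the 49 genes was -0.014, with a range of -0.40 to 0.68, 19 genes higher and 30 lower in guards. The median size was 0.074 for the 49 and 0.065 for all genes tested. The median standard error was 0.12 for the 49 and 0.062 for all genes, so type effects were measured less precisely in these genes than in most. The median ratio of the colony means was 2.42 within guards, 2.04 within nurses and 2.37 within unresponsive bees, with a direction that the rule fixes.

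Within colony 5, 0 of the 49 genes differed between any pair of types. The shares of all genes called were 0.00913% for guards against nurses, and 0% for unresponsive bees against nurses and against guards. An unadjusted p under 0.05 was found for 6, 3 and 2 of the 49, against 4.82%, 7.44% and 5.01% of all genes. DESeq2 called 0 of the 49 in each, against 0.0457%, 0.146% and 0.00913% of all genes. In colony 6, 0 of the 49 differed between unresponsive bees and nurses, against 0.00913% of all genes. None of the 49 had an unadjusted p under 0.05, against 1.76% of all, and DESeq2 called 0, against 0.0639% of all. By edgeR as by DESeq2, only GB51305 differed between guards and nurses and between unresponsive bees and guards. That was 1 of 49 genes, 2.04%, in each comparison, against 0.603% of all genes tested in each by edgeR, and 1.31% and 1.36% by DESeq2. By direction, 0.493% of all genes were higher in colony 6 guards than in nurses, and 0.512% were lower in unresponsive bees than in guards. At an unadjusted p under 0.05 by edgeR, guards against nurses gave 2 of the 49 genes and 1553 of all 10948. Unresponsive bees against guards gave 1 of the 49 and 1547 of all 10948. Both shares were lower in the 49 than in all genes, but the rule favours such a deficit, so nothing about type follows from it.

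GB51305 had, in colony 6, a lowest, median and highest value of 6.74, 19.1 and 23.9 CPM in guards, 5.44, 8.17 and 10.5 CPM in nurses and 5.12, 7.45 and 10.7 CPM in unresponsive bees. Guards 210, 213, 230 and 237 stood at 21.5, 17.7, 20.6 and 23.9 CPM, above all other bees, while Guards 205 and 222, at 7.79 and 6.74 CPM, lay within the range of the other types. In colony 5 the means were 3.11, 3.06 and 3.22 CPM in guards, nurses and unresponsive bees, and their ranges overlapped. The guard level in colony 6 was 1.03 ± 0.24 above nurses on the log2 scale (SE, adjusted p = 0.0298 by edgeR), and unresponsive bees stood -1.09 ± 0.24 from guards (adjusted p = 0.0192). In colony 5 guards stood 0.0060 from nurses on that scale. The test of whether type differences differ between the colonies did not pass (adjusted p = 0.753, unadjusted p = 0.00430), and it called 0 of the 49 genes against 0.0274% of all, with 1 of the 49 at an unadjusted p under 0.05 against 4.14% of all. DESeq2 called 0 of the 49 for it, against 0.21% of all.

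The size of the GB51305 difference was about the same without the bees numbered 213, the deepest libraries and the only number left out of this fit, but neither call passed. Without the bees numbered 213 the guard to nurse difference was 1.06 with an adjusted p of 0.116, and the unresponsive to guard difference was -1.08 with an adjusted p of 0.0882. With title number as a replicate block the guard to nurse difference was 0.93 and did not pass (adjusted p = 0.0660 by edgeR), while the unresponsive to guard difference was -1.04 and passed (adjusted p = 0.0316). Guards 213, 230 and 237 were the 3 colony 6 bees of high DWV load, while Guard 210 had a low load. In colony 5, where 13 of 18 bees had a high load, no bee exceeded 4.38 CPM. The rule keeps every colony 5 bee below the lowest colony 6 bee whatever its load, so nothing about load follows from that value. With DWV load as a covariate the differences were 0.64 (adjusted p = 0.638) and -0.72 (adjusted p = 0.421). With any 1 guard left out, the mean of the other 5 stayed 1.91 to 2.35 times that of the other types of colony 6.

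**Figure D5:**
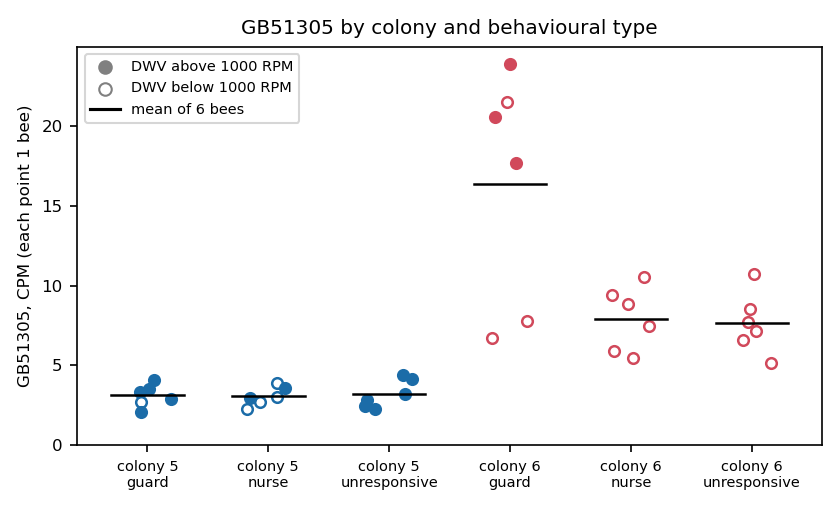
CPM of GB51305 in each bee by colony and behavioural type, with the mean of 6 bees as a line; filled points are bees with DWV above 1000 RPM. In colony 6, 4 of 6 guards stand above all other bees, 3 of them with high DWV. The 18 bees of colony 5 reach at most 4.38 CPM, where the rule keeps them below every colony 6 bee.

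The slope on DWV load, fitted with type and colony, passed in 0 of the 49 genes, against 0% of all genes. DESeq2 called 0 of the 49, against 0.11% of all. An unadjusted p under 0.05 was found for 3 of the 49, against 4.38% of all. GB51305 had the lowest p, with 0.23 ± 0.07 log2 units for each factor of 10 in load (SE, adjusted p = 0.620). With DWV load as a covariate the fitted colony difference of the 49 genes had a median of 1.23 on the log2 scale, against 1.22 without it. The genes were chosen for this difference, so these medians describe its size only.

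Bees of one title number may share a dish. The joint test of title numbers within colony called 0 of the 49 genes by edgeR, against 1.11% of all genes. An unadjusted p under 0.05 was found for 1 of the 49, against 18.7% of all. The rule favours genes with a small spread among the bees of a colony, so this lower share is a description too. GB41923 came closest, with an adjusted p of 0.0574. In colony 6 its 3 lowest bees were those numbered 222, at 0.755, 1.06 and 1.25 CPM, while the other 15 ranged from 1.67 to 5.19 CPM. DESeq2 called this gene, with an adjusted p of 2.81e-06, which made 1 of the 49 against 11.3% of all genes.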

How the data were processed

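RNA was sequenced from 36 bees, 6 of each type in each colony. The deposited files hold read counts per gene, 1 file per bee, which the authors did not normalize. Per the submitters' processing notes, the tools were HTSeq, TopHat2 2.0.10, Bowtie2 2.1.0, CASAVA 1.8.2, and SAMtools 0.1.19. The sources used here do not give their order or the version and strand setting of HTSeq. Per the labels' protocols, libraries came from a stranded mRNA kit. Without a stated strand setting, overlapping and antisense genes are uncertain, as are near-identical copies. The 5 summary lines that name no gene held 31.9% of the reads counted in genes or in these lines (28.9% in no feature). They stayed out of the totals over genes. These shares are not shares of the total reads.

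The genes, lists and tests were chosen with earlier results of these data known. Genes named are those with the 10 greatest ratios, the 5 highest colony 6 means, the 3 greatest and 3 least coefficients of variation in colony 6, the 3 narrowest spaces, a neighbour among the 49 within 5 places, 2 levels, or a passed test; GB54410, GB42571, GB51034 and GB52593 were added after their values were seen. Counts were fitted in R 4.3.3 with edgeR 4.0.16 (filterByExpr by type, TMM, robust quasi-likelihood F test) on all 36 bees with type and colony, with 6 groups of type and colony, or with DWV load or title number added; DESeq2 1.42.0 was an alternative. Standard errors are the log2 difference over the root of F. Correlations used log2 CPM with a prior count of 2 and 100000 permutations, or exact enumeration under 10 bees (Python 3.11.15, SciPy 1.17.1). Scripts were tested on simulated data. Alternatives were other scalings, minima and filters, each title number left out, high DWV left out or as a covariate, and title number as a term. No 2 libraries of the same colony and type agreed within sampling noise (lowest chi-square per degree of freedom 9.25 over 90 such pairs). This value does not cover pairs from different groups. Bees of a colony are sisters, so p-values measure the spread between bees of these colonies.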

Additional observations from a re-analysis of the deposited data

Results flagged for a closer look

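In groups of 6 bees (1 colony and type) of the 25 genes named by rule, 19 values in 150 groups stood so far from the other 5 bees that their gap, as a share of the group's range, exceeded Dixon's critical value. Chance gives about 1 in 20 groups of normally distributed values, which values on few counts need not be. The groups are not independent, because the same bees enter for every gene. A separate level of 1 bee also meets the criterion.

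GB41275 gave the clearest of these, Nurse 19 of colony 5 at 6.80 CPM on the higher level with the other nurses at 0.2205 to 0.482 CPM, and Unresponsive 35 at 0.117 CPM on the lower level. In the genes near absent in colony 5 the values stood on few counts: GB41278 in Nurse 5 at 0.186 CPM (3 counts), GB40664 in Nurse 40 at 0.240 CPM (5 counts), GB47019 in Guard 40 at 0.152 CPM (3 counts), GB41923 in Unresponsive 40 at 0.690 CPM (13 counts) and GB55201 in Unresponsive 35 at 0.351 CPM (6 counts). All 5 were the highest of their group.

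Other colony 5 bees set apart were Nurse 40 for GB40288 (3.07 CPM, lowest), Nurse 5 for GB54969 (2.29 CPM, highest), Unresponsive 32 for GB46145 (2731 CPM, highest), and Nurse 32 and Unresponsive 40 for GB51226 (72.8 and 73.1 CPM, both highest). In colony 6, Guard 222 was the highest guard for GB40664 (3.52 CPM) and for GB55201 (2.62 CPM), and Unresponsive 222 was the lowest of its group for GB55201 (1.05 CPM). Guard 237 was highest for GB48012 (1.30 CPM), Nurse 205 highest for GB51836 (119 CPM), Unresponsive 213 lowest for GB54827 (848 CPM) and Guard 213 highest for GB44336 (210.1 CPM, with the other guards at 138 to 147 CPM).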

How the results depend on the processing

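Of 145 values under alternatives, 129 kept their direction and side of the threshold or, for counts, stayed within 1.5 times the count reported. Many of these were counts of 0 of the 49 genes called that stayed at 0, so the tally says little about the other results. The number of genes wholly higher in colony 6 was 49 to 65 with each title number left out, 65 without number 213, 189 without the 16 libraries of high DWV load, which leaves 5 bees in colony 5, and 106 when the second lowest bee was set against the second highest. Fewer bees, or the second bee in place of the first, can only loosen the demand for no overlap. Apart from the minimum mean these counts could not fall, so nothing about load or stability follows from them. Minima of 0, 2 and 5 CPM gave 53, 43 and 36. GB51305 was the only 1 of the 49 genes called by type, and the count fell to 0 in both colony 6 comparisons without number 213 and with DWV load as a covariate. DESeq2 called 1 gene for title number where edgeR called 0. The correlation of GB42751 and GB42752 fell to 0.618 after removing type means and no longer passed. With a least step of 0.5, 10 genes met the definition of separate levels in colony 5 and 2 in colony 6. For GB41278 and GB48012, among the 10, the step only divided bees with no count from bees with few counts. With title number as a replicate block, 0 of the 49 genes were called for guards against nurses in colony 6 (GB51305, 0.93, adjusted p = 0.0660 by edgeR) and 1 for unresponsive bees against guards (-1.04, adjusted p = 0.0316), and no other count changed. Bees of one number deviated together in 23 of 36 pairs (correlation above 0.1, median 0.16, range -0.17 to 0.42). The main fits nevertheless left the number out, so calls by type should be read beside those with the block. Whether bees of one number share more than the number was not settled. Apart from the counts of wholly higher genes with fewer or second bees, whose direction the rule fixes, the cause of these changes was not tested. Depth limits the genes near 0 in colony 5.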
